A study of Caenorhabditis elegans with 2 samples.

Results

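The genes described here carry names of initiation and elongation factors of cytosolic translation in Caenorhabditis elegans. Some factors have genes under other names and are not in the set, such as cif-1 of eIF3. The set holds the protein-coding genes of the WBcel235 annotation whose names begin with eif-, eef-, ife-, ifg-, iff- or iftb-. This rule uses names and no measured value, but it was chosen with earlier results of these data known. The rule took 39 of the 19973 genes of that kind on the nuclear genome, and no gene in the annotation had a name beginning with iftb-. Of the 39, 31 were counted as initiation factors by their names, eif-4A3 and eif-6 included, and 8 as elongation factors. The eIF5A genes iff-1 and iff-2 were placed among the elongation factors because eIF5A acts mainly on elongating ribosomes. The data were ChIP-seq peak lists for XND-1, a chromatin protein of the worm germline, from a transgenic line of strain QP0661 that stably expresses XND-1 with GFP and FLAG at its C-terminus. The series held 1 group of 2 biological replicates of whole young adult hermaphrodites, collected 50 hours after release from starved L1 arrest, and the sample descriptions give an antibody against GFP for the immunoprecipitation, while the antibody field of the labels reads xnd-1. Whole animals were used, so germline and somatic chromatin were not separated.

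Translation begins when eIF2 brings the initiator tRNA to the small ribosomal subunit, where eIF1, eIF1A and the multi-subunit eIF3 help to find the start codon. eIF4E and eIF4G bring the capped mRNA, and eIF2B recharges eIF2 with GTP between rounds. During elongation eEF1A delivers aminoacyl-tRNA, eEF1B exchanges its nucleotide, eEF2 moves the ribosome along the mRNA and eIF5A relieves stalls. The worm germline uses some dedicated isoforms of these factors, such as IFF-1 among the eIF5A proteins and IFE-1 among the cap-binding proteins.

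XND-1 summits in the list that the authors thresholded by irreproducible discovery rate (IDR) lay in the promoter windows of 9 of the 39 translation factor genes. The promoter window ran from 500 bp upstream to 200 bp downstream of any annotated 5′ end of a protein-coding transcript. The 9 genes were eif-3.C, eif-3.B and eif-3.G of eIF3, eif-2A, and the elongation factor genes eef-2, eef-1A.1, eef-1B.1, eef-1G and iff-1. They made up 23.1% of the translation factor genes (exact Clopper-Pearson 95% interval 11.1% to 39.3%), against 6.68% of all protein-coding genes. On the autosomes the count was 9 of 36, or 25%, against 7.68% of all autosomal genes. The other 3 translation factor genes, eef-1A.2, ife-2 and ife-4, lie on X and had no IDR-thresholded summit, and 0.366% of all X genes had one. No test was made of these shares, since the genes are not replicates. Intervals cover only the number of genes.

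The elongation factor genes had 5 of 8 promoters with an IDR-thresholded summit (62.5%, interval 24.5% to 91.5%), and the initiation factor genes had 4 of 31 (12.9%, 3.63% to 29.8%). The difference between these shares was not tested. Within the initiation factors, eIF3 had 3 of its 11 genes taken by the rule, and the pair eIF2A and eIF2D had 1 of 2. No IDR-thresholded summit lay in the promoter window of any gene of eIF2 (0 of 3), eIF2B (0 of 5), eIF1 and eIF1A (0 of 2) or eIF4E (0 of 5), nor of ifg-1, eif-4A3 or eif-6.

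**Figure D1:**
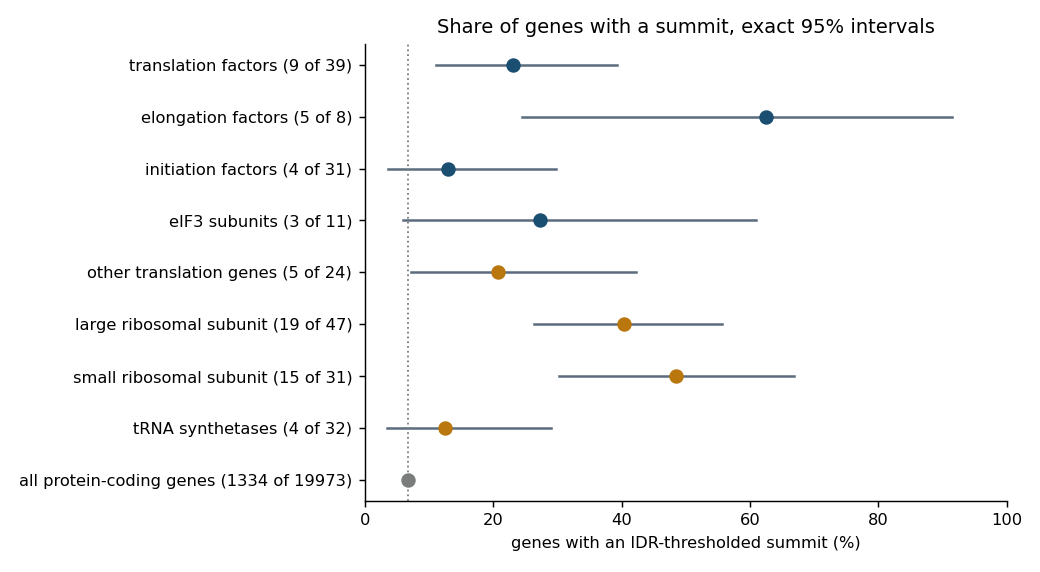
Share of genes with an IDR-thresholded XND-1 summit in the promoter window, in percent of each gene group (x axis), with exact Clopper-Pearson 95% intervals as lines; blue points are translation factor groups, orange points are other gene groups of the translation apparatus, and the grey point with the dotted line is all protein-coding genes. The 39 translation factor genes stood at 23.1%, the elongation factors among them at 62.5% and the initiation factors at 12.9%, beside 6.68% of all genes.

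The lists before the IDR step are loose and hold background regions, and more translation factor promoters carried a summit there. In the list called on both replicates pooled, 29 of 39 promoters had one (74.4%), against 27.7% of all protein-coding genes. A summit in the separate lists of both replicates was present at 22 of 39 (56.4%), against 17.5% of all genes. Related groups had pooled shares of 78.7% (large-subunit ribosomal protein genes), 100% (small-subunit), 71.9% (aminoacyl-tRNA synthetase genes) and 66.7% (24 other translation genes). Their shares for both replicates were 74.5%, 90.3%, 46.9% and 37.5%, in the same order. The authors' caller gave each peak a score, the signalValue, which has no unit and is compared here only within a list. Among the promoters with a pooled summit, the translation factor genes had a median score of 40.0 (n = 29), against 27.6 over all genes (n = 5525). The median was 107 for the elongation factor genes (n = 7) and 28.7 for the initiation factor genes (n = 22), the latter close to that of all genes.

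The summits at translation factor promoters were not among the strongest of the IDR-thresholded list. Their scores had a median of 121 and ran from 68.6 to 274, while the 1334 genes with such a summit had a median of 145 and a range of 65.6 to 2040. Ranks within the 1841 IDR-thresholded peaks ran from 420 to 1749, with 4 of the 9 above the middle of the list and 0 in its top 25. No list from animals without the tag was used here, so signal that any ChIP gives at these promoters cannot be told apart from signal of XND-1. The peak lists give no read totals, so the depth of each replicate is unknown.

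**Figure D2:**
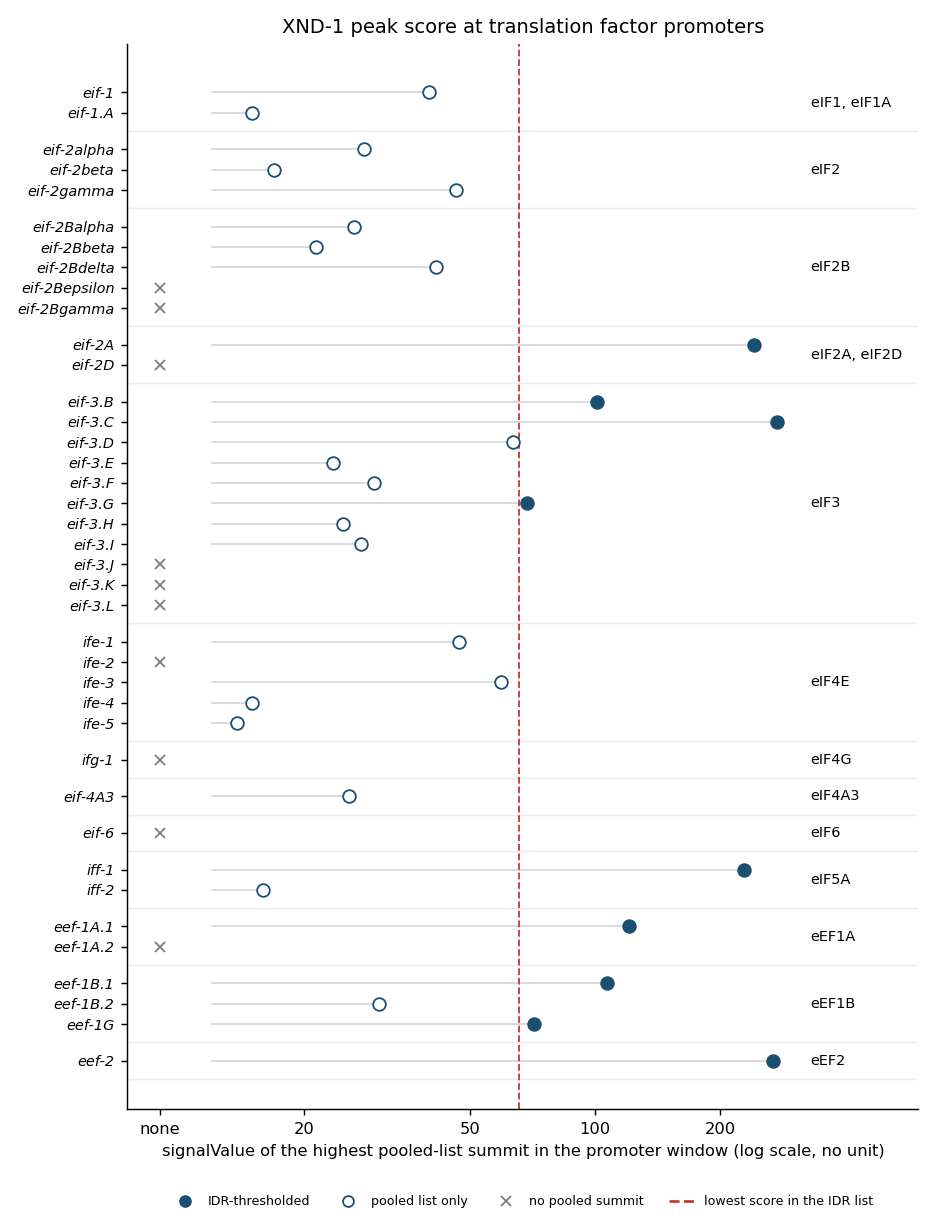
Score of the highest pooled-list summit in the promoter window of each of the 39 translation factor genes (x axis, signalValue on a log scale, no unit), grouped by factor from top to bottom. Filled circles are IDR-thresholded summits, open circles are summits of the pooled list only, crosses are genes with no pooled summit in the window, and the dashed line is the lowest score in the IDR-thresholded list, 65.6. The 9 filled circles lie between 68.6 and 274, and eif-3.D and ife-3 lie closest below the line.

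Among the elongation factor genes, eef-2 had the highest summit. It encodes eEF2, the translocase, and its pooled score was 268 (rank 438 of the IDR-thresholded list) at chrI:9163497, 34 bp upstream of its 5′ end. In replicate 1 the peak scored 113 (rank 539 in that list) and in replicate 2 it scored 159 (rank 361), so it stood high in both. iff-1, the germline eIF5A gene, scored 228 (rank 534), and the replicates gave 121 and 108. Its summit lay inside the gene, in an intron of the longest transcript. It was 275 bp upstream of an internal annotated 5′ end and 314 bp downstream of the outermost of the 3 annotated 5′ ends. With the outermost 5′ end alone iff-1 would have no summit in its promoter window, which leaves 4 of 8 elongation factor genes and 8 of the 39 genes (20.5%), against 6.25% of all genes.

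The 3 remaining bound elongation genes belong to eEF1. The eEF1A gene eef-1A.1, also known as eft-3, scored 121 (rank 979), and its replicates gave 61.4 and 60.6 at summits 3 bp apart. eef-1B.1, which encodes a subunit of the exchange factor eEF1B, scored 107 (rank 1100), with 48.3 in replicate 1 and 62.5 in replicate 2. Both stood in the middle of the list. eef-1G, the gamma subunit of eEF1B, scored 71.4 (rank 1687), with 22.1 in replicate 1 at rank 3341 and 49.0 in replicate 2 at rank 1289. Its replicate summits lay 132 bp apart, the largest gap among the 9 genes.

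Of these 5 elongation factor summits, 4 also lay in the promoter window of a neighbour on the opposite strand. The summit of eef-2 lay 231 bp upstream of clsp-1, a claspin gene of the replication checkpoint. The summit of eef-1A.1 lay 411 bp upstream of its own 5′ end and only 130 bp upstream of rfc-4, a subunit gene of the clamp loader replication factor C. The summit of eef-1B.1, 7 bp upstream of its own 5′ end, lay 324 bp upstream of aco-2, a mitochondrial aconitase gene. That of eef-1G, 21 bp upstream of its own, lay 159 bp upstream of ctf-4, a gene of the replisome. Peak lists do not show which of the genes of a shared promoter a summit belongs to. The gene nearest to the summit was the elongation factor at eef-2, eef-1B.1 and eef-1G, and rfc-4 at eef-1A.1. At iff-1 the opposite-strand neighbour, the cell-cycle kinase gene cdk-1, began 593 bp from the summit, so its window did not hold it. Counted over summits in the window of no other gene, the elongation factors had 1 of 8 promoters with a summit, that of iff-1, the initiation factors 4 of 31 and the 39 genes together 5 (12.8%), against 3.96% of all genes.

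The bases under 4 of the 5 elongation factor summits are given to show what the shared and unshared promoters hold. Each sequence is the pooled summit with 50 bases of WBcel235 on either side, read 5′ to 3′ on the strand of the factor gene. They come from chrIII:9746829-9746929 (iff-1, minus strand), chrIII:6972073-6972173 (eef-1A.1, minus strand), chrIII:7973343-7973443 (eef-1B.1, minus strand) and chrV:10965648-10965748 (eef-1G, plus strand). Capitals mark the words counted further on, on either strand, where overlapping words run together.
iff-1: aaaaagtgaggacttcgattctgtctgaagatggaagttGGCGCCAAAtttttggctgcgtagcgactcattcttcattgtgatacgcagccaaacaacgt
eef-1A.1: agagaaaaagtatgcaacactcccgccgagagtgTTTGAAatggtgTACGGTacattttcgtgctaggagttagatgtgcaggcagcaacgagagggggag
eef-1B.1: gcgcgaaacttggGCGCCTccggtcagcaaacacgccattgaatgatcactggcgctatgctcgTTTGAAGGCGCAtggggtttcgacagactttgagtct
eef-1G: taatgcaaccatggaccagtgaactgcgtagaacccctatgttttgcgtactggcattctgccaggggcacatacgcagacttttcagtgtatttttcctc
The iff-1 sequence holds GGCGCCAAA, those of eef-1A.1 and eef-1B.1 hold TTTGAA, and that of eef-1G holds none of the words.

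Genes for related elongation factors differed in whether they carried an IDR-thresholded summit. The coding sequences of eef-1A.1 and eef-1A.2 are 94% identical and encode proteins of 463 residues that are identical. In its promoter window eef-1A.1 had the summit described above, and eef-1A.2, on X, had none in any of the 4 lists. The eef-1A.1 summit lay nearer to rfc-4 (130 bp) than to eef-1A.1 (411 bp), and 0.366% of all X genes had an IDR-thresholded summit. Whether the pair differs beyond these 2 points was not tested. Every 36-base stretch of the promoter windows of eef-1A.1 and eef-1A.2 occurs once in the genome. How reads from these windows were placed was not tested. iff-1 and iff-2 encode proteins that are 69.2% identical. The somatic eIF5A gene iff-2 had a pooled score of 15.9 (rank 17601), with 8.20 in replicate 1 and no summit in replicate 2, against 228 for iff-1. The eEF1B genes eef-1B.1 and eef-1B.2 gave a lower value, with 213 and 440 residues and 15.5% identity over the whole alignment. The longest annotated coding sequence of each gene was used and gaps count against identity, so the unequal lengths lower this value. eef-1B.2 had a pooled score of 30.3 (rank 5185), with 16.0 in replicate 1 and 14.4 in replicate 2, against 107 for eef-1B.1. A pair is 2 genes in the same libraries, and no test was made between them.

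Among the initiation factor genes, the eIF3 subunit gene eif-3.C had the highest summit. Its pooled score was 274 (rank 420), and the replicates gave 145 at rank 406 and 128 at rank 479. The summit stood at chrI:9979907, 245 bp upstream. The next highest was eif-2A, whose product eIF2A is a non-canonical initiator tRNA carrier known from mammals and yeast. It scored 241 (rank 497) 110 bp upstream, with 110 in replicate 1 and 135 in replicate 2.

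The other eIF3 genes with an IDR-thresholded summit scored lower. eif-3.B, a scaffold subunit of eIF3, scored 100.99 (rank 1165) 245 bp upstream, with 48.6 and 50.1 in replicates 1 and 2, and had a second pooled summit of 35.4 at 45 bp upstream. eif-3.G, an RNA-binding subunit, scored 68.6 (rank 1749) 296 bp upstream, with 22.8 in replicate 1 at rank 3207 and 42.8 in replicate 2 at rank 1477. It stood just inside the list, and in replicate 1 it was outside the top 1841 peaks, as eef-1G was. None of the 4 initiation factor summits lay in the promoter window of another protein-coding gene.

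The summit sequences of 3 of these initiation factor genes are given because their words recur. They run, again with 50 bases on either side of the summit, over chrII:10416640-10416740 (eif-2A), chrII:14795109-14795209 (eif-3.B) and chrII:8442421-8442521 (eif-3.G), all on the plus strand of WBcel235, which is the strand of the gene. Capitals again mark the words that were counted.
eif-2A: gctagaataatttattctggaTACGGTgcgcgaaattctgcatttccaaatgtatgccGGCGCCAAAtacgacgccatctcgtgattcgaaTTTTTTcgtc
eif-3.B: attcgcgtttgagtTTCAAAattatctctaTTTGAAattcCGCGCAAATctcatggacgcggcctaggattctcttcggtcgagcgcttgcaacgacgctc
eif-3.G: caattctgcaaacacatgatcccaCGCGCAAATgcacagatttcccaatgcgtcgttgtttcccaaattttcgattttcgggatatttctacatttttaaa
The word CGCGCAAAT stands in the sequences of eif-3.B and eif-3.G, and the word GGCGCCAAA of iff-1 stands again in that of eif-2A. Both words were picked after these sequences had been read, so the counts over the 9 promoters only describe them.

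CGCGCAAAT lay within 50 bp of the summit in the 3 eIF3 genes of the 39 with an IDR-thresholded summit, eif-3.B, eif-3.C and eif-3.G. Its centre was 6, 30 and 22 bp upstream of the summit in these genes, and it read in the direction of the gene each time. The summit of cif-1, an eIF3 gene outside the naming rule, was counted only among the other summits and was not checked on its own. Among the 39 translation factor genes only these 3 held the word in the 701 bp promoter window. It occurred at 16 of the 1832 other IDR-thresholded summits (0.873%), in 0.136% of flanks 300 bp away, and in the windows of 199 protein-coding genes (0.996%). Of these 199, the 3 eIF3 genes included, 33 had an IDR-thresholded summit (16.6%), against 6.68% of all genes. GGCGCCAAA lay at the summits of eif-2A and iff-1, at 1.15% of the other summits, in 0.191% of flanks and in the windows of 145 genes (0.726%). Of these 145, eif-2A and iff-1 included, 32 had an IDR-thresholded summit (22.1%). Words were searched on both strands. A match describes the letters and is not evidence of a binding site.

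The 6-base words looked for at every summit gave small counts. TTTGAA, the core of the cell-cycle homology region known from other animals, lay within 50 bp of 4 of the 9 summits, those of eef-1A.1, eef-1B.1, eef-2 and eif-3.B, against 28.1% of the other IDR-thresholded summits and 24.2% of their flanks. TTTTTT lay at 1 of 9, against 35.0% of the other summits. The E-box CACGTG, the GATA-factor word GATAAG, the TATA-box word TATAAA and the repeat GAGAGA lay at 0 of 9, and at between 1.91% and 7.70% of the others. The 5 words with the largest excess at the other 1832 summits over flanks were also counted. ACCGTA lay at 3 of the 9 (against 18.9% of the others), GGCGCA at 2 (against 20.7%), AGGCGC at 2 (against 20.2%), AAGGCG at 1 (against 19.2%) and GAGACC at 0 (against 21.1%). At 5 of the 9 summits 1 or more of these words was present, against 46.1% of the others. AGGCGC shares letters with GGCGCA and AAGGCG, so their counts are not separate. The median GC content within 50 bp was 47.5% at the 9 summits (38.6% to 55.4%), against 41.6% at the other summits and 36.1% in their flanks.

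The other 27 initiation factor genes had lower summits or none. The 6 with the highest pooled scores among genes outside the IDR-thresholded list were eif-3.D, ife-3, ife-1, eif-2gamma, eif-2Bdelta and eif-1. The eIF3 subunit gene eif-3.D, at 63.4 (rank 1919 of the pooled list), stood closest outside the lowest score of the IDR-thresholded list, 65.6. It had 37.5 in replicate 1, at rank 1671, and 22.8 in replicate 2, at rank 3259. In the replicate 1 list it was thus among the top 1841 peaks. The gene for eIF2 gamma, the subunit that binds initiator tRNA and GTP, scored 46.3, with 19.5 and 29.7 in replicates 1 and 2. The eIF2B subunit gene eif-2Bdelta scored 41.5, with 32.3 in replicate 1 at rank 1992 and 10.3 in replicate 2 at rank 15333, the most unequal ranks of the 6. eif-1, for a factor of start-codon selection, scored 40.0, with 18.1 and 22.5 in the replicates and summits 1 bp apart.

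The cap-binding eIF4E genes had summits of graded height, none of which passed the IDR step. ife-3, which encodes the isoform most like mammalian eIF4E, scored 59.5 (rank 2086) at 421 bp upstream, with 33.1 in replicate 1 and 26.8 in replicate 2. ife-1, whose product is found in germline P granules, scored 47.0 (rank 2770), with 18.8 and 28.0 in the replicates, at a summit in an intron 6 bp upstream of an internal 5′ end. ife-4 on X scored 15.0, and ife-5 scored 13.8 with 8.93 in replicate 2. Both lay below the median of the pooled list, 19.2, and ife-2 on X had none in its promoter window in any list. The proteins of the 5 genes share between 25.1% and 69.0% of residues in pairs, and ife-1 and ife-5 are the pair with the highest identity. For ife-5, 87.6% of 36-base stretches in the promoter window occur once in the genome, so part of it could be read less well.

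Of the 30 genes with no IDR-thresholded summit in the promoter window, 20 had a pooled summit there, 13 of them with one in both replicate lists. Beside the 6 genes above, the other 14 scored between 13.8 and 30.3. The median was 19.2 over all peaks of the pooled list, and 27.6 over all genes with a pooled summit in the window. In a further 5 genes, eif-2Bgamma, eif-2D, eif-3.J, eif-3.K and ifg-1, the promoter window held a summit in the list of 1 replicate only. ifg-1 is the eIF4G gene of the worm, and its replicate 1 score was 9.71 at rank 15378. In 5 genes, eef-1A.2, eif-2Bepsilon, eif-3.L, eif-6 and ife-2, no list held a summit in the promoter window. Further inside the gene, pooled summits lay at eif-6 (19.6), eif-2Bepsilon (17.4) and eef-1A.2 (14.8), at 754, 506 and 804 bp downstream of the 5′ end. At eif-3.L only 4.87% of 36-base stretches in the window occur once in the genome, so the lack of a summit there carries little information. The windows of 34 of the 39 genes consist entirely of such stretches.

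The eIF3 subunits taken by the rule show how the genes of a complex differed in the same libraries. Their pooled scores were 274 (eif-3.C), 100.99 (eif-3.B), 68.6 (eif-3.G), 63.4 (eif-3.D), 29.5 (eif-3.F), 27.4 (eif-3.I), 24.8 (eif-3.H) and 23.4 (eif-3.E). The promoter windows of eif-3.J, eif-3.K and eif-3.L held no pooled summit. The highest was thus about as high as eef-2. Over all genes with a pooled summit in the window the median was 27.6, and eif-3.I, eif-3.H and eif-3.E lay below it. With 2 replicates in 1 group, no error can be put on this order. Between neighbours such as eif-3.G and eif-3.D, replicate 1 had the higher score at eif-3.D and replicate 2 at eif-3.G.

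Measured to the nearest annotated 5′ end, the 9 IDR-thresholded summits lay between 7 and 411 bp upstream, at a median of 245 bp. Of these, 8 lay outside and upstream of the gene, and that of iff-1 lay in an intron, upstream of an internal 5′ end only. Over all 1334 genes the median was 195 bp upstream. The elongation factor genes had a median of 34 bp (n = 5) and the initiation factor genes of 245 bp (n = 4), and this difference was not tested. Peaks had a median width of 460 bp at the 9 genes and at all genes with a summit. Many worm transcripts are trans-spliced, so an annotated 5′ end can lie downstream of the point where transcription starts.

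**Figure D3:**
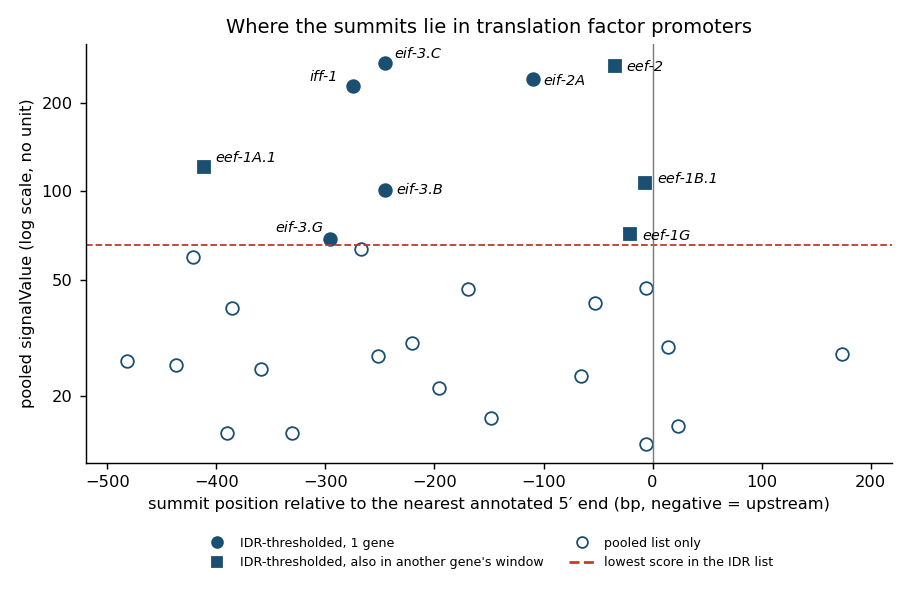
Position of pooled-list summits relative to the nearest annotated 5′ end (x axis, bp, upstream negative) and its signalValue (y axis, log scale, no unit) for the 29 translation factor genes that had one in the promoter window; filled circles are IDR-thresholded summits in the window of 1 gene, filled squares are those also in the window of another gene, open circles are summits of the pooled list only, and the dashed line is the lowest IDR-thresholded score. The 9 IDR-thresholded summits lie between 411 and 7 bp upstream of the nearest 5′ end, with a median of 245 bp; for iff-1 this is an internal 5′ end within the gene.

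Translation factor genes often stood back to back with another gene. An opposite-strand 5′ end lay within 1000 bp upstream of 20 of the 39 (51.3%), against 18.2% of all protein-coding genes. Of these 20, 5 had an IDR-thresholded summit (25%), against 17.0% of all such divergent genes, and the 5 were the elongation factor genes with a summit. A same-strand gene ended within 500 bp upstream of 7 genes, of which 1, eif-3.C, had a summit (14.3%), against 7.22% of all such genes. Of the 12 genes with neither arrangement, 3 had a summit (25%), eif-2A, eif-3.B and eif-3.G, against 3.57% of all such genes. How far the arrangement of genes accounts for the share of 23.1% was not tested.

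The replicates ranked the translation factor promoters in much the same order. Over the 22 promoters with a summit in both lists, the scores of replicates 1 and 2 had a Spearman rho of 0.842, as a description, since the promoters share libraries. The highest summit of each list was taken, and the summits paired this way need not be the same peak. They lay 681 bp apart at eif-2beta and 237 bp apart at eif-3.I. The score was higher in replicate 1 at 10 of the 22, and higher in replicate 2 at 6 of the 9 with an IDR-thresholded summit. Scores of different lists are not on a common scale, so these counts do not show which replicate had more signal. Replicate summits of the 9 genes lay between 3 and 132 bp apart, with a median of 29 bp. Of the 9, 7 were among the top 1841 peaks of replicate 1, all but eef-1G and eif-3.G, and all 9 were among those of replicate 2.

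**Figure D4:**
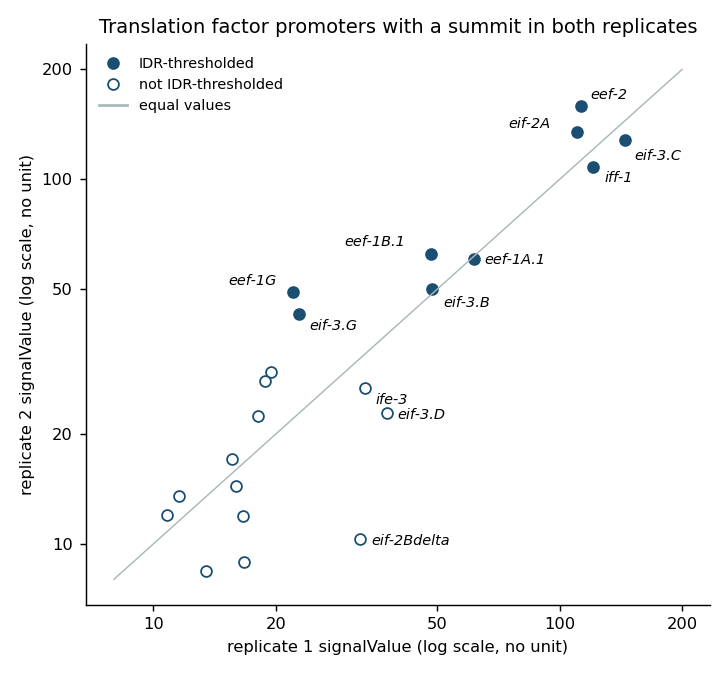
Score of the highest promoter summit in replicate 1 (x axis) and replicate 2 (y axis), signalValue without a unit on log axes, for the 22 translation factor genes with a summit in both replicate lists; filled circles are genes with an IDR-thresholded summit, open circles are the others, and the grey line marks equal scores. The scores of the replicates follow each other (Spearman rho 0.842), and eef-2, eif-3.C, eif-2A and iff-1 stand highest in both.

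Genes of translation whose names the rule does not take were counted as a comparison. The 24 such genes included release factor genes, poly(A)-binding protein genes, eIF2 kinase genes and mitochondrial elongation factor genes. Initiation factor genes under other names, inf-1, iffb-1, egl-45 and cif-1, were also among them. Of the 24, 5 had an IDR-thresholded summit (20.8%, interval 7.13% to 42.2%), close to the 23.1% of the 39 genes. No such summit lay in the windows of inf-1, iffb-1 and egl-45. ifet-1, for the eIF4E-binding repressor 4E-T, scored 273 at a summit 494 bp upstream that also lay in the window of the ribosomal protein gene rps-1. tufm-1, the mitochondrial EF-Tu gene, scored 92.4, and clu-1, whose mammalian counterpart binds mRNAs of mitochondrial proteins, scored 84.4 at a summit shared with prp-40. gcn-1, an activator of the eIF2 kinase GCN2 in yeast, scored 68.4, and cif-1, a subunit gene of eIF3 outside the naming rule, scored 65.7 at rank 1837 of 1841, at a summit inside the gene, upstream of an internal 5′ end. The ribosomal protein genes had 19 of 47 (40.4%, large subunit) and 15 of 31 (48.4%, small subunit), and the aminoacyl-tRNA synthetase genes 4 of 32 (12.5%). None of the differences between these groups was tested.

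Near 2 of the other genes, eif-2Bgamma and ife-5, an IDR-thresholded summit lay within 1000 bp of an annotated 5′ end but outside the promoter window. At eif-2Bgamma, a subunit gene of eIF2B, the nearest lay 632 bp upstream with a score of 106. The wider window, from 1000 bp upstream to 500 bp downstream, held 2 summits there. At ife-5 a summit of 542 (rank 176), higher than any in a translation factor promoter, stood at chrII:12284255, 116 bp past the annotated 3′ end of the gene. It was 897 bp downstream of an internal 5′ end and 3595 bp downstream of the outermost of the 2 annotated 5′ ends. Neither the nearest summit of eif-2Bgamma nor that of ife-5 lay in the promoter window of any protein-coding gene. No IDR-thresholded summit lay in the body of any of the 39 genes outside the windows, whereas 26 of them had a pooled-list summit there. Neither count was made over all protein-coding genes, so both only describe these genes.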

How the data were processed

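Tagged XND-1 was mapped by ChIP-seq in 2 biological replicates that form 1 group, per the labels; both replicates are whole young adults. Peaks were called per replicate and on pooled replicates, and an IDR-thresholded list was made from them, per the deposited descriptions of the files. Aligner, caller and IDR cut-off are not given in the sources used here. The deposited ce11 lists held 1841 IDR-thresholded peaks, 24467 pooled peaks, and 22772 and 22364 peaks for replicates 1 and 2. The signalValue is a score that the authors' caller gave each peak, with no unit. The deposited −log10 q-values were 3.78 for every IDR-thresholded peak and ranked nothing. The summit position is the deposited offset from each peak's start.

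Genes and 5′ ends came from Ensembl annotation release 115 and sequences from the RefSeq WBcel235 genome. A gene counted as having a summit when one lay within 500 bp upstream to 200 bp downstream of a 5′ end, and the highest score in the window was used. Words were counted once per summit within 50 bp on both strands. Values were computed with numpy 2.4.6 and scipy 1.17.1 under Python 3.11.15, figures were drawn with matplotlib 3.10.9, and the counting was tested on simulated data. No significance test was made, since the series has no comparison between groups.

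The genes and lists were chosen with earlier results of these data known. Named genes are those with an IDR-thresholded summit, the 6 others with the highest pooled score, the paralog groups, neighbours at the same summit, and genes of the added translation list with a summit; 2 names of that list, etf-1 and gfm-2, matched no gene. Some genes are named beyond this rule, such as the eIF3 subunits, and were chosen after their values were seen. Alternatives were each replicate's own list, a list of the strongest 921 peaks, a list of 3682 pooled peaks, narrower and wider windows, any overlap, and autosomes alone. Summits in no other gene's window, nearest 5′ ends and outermost 5′ ends alone were added after the data were examined. The ce10 lists were not used here.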

Additional observations from a re-analysis of the deposited data

How the results depend on the processing

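The share of translation factor genes with a summit stayed above that of the other protein-coding genes in every setting run, by 6.57 to 27.9 percentage points against 16.4 as reported. The counts depended on the list and the window. The strongest 921 peaks, a shorter list, left 4 of the 39 genes with a summit (2 elongation, 2 initiation), 1 gene of the added translation list, and a median position of -178 bp. A list of 3682 pooled peaks gave 15 genes (10 initiation). A narrower window, from 200 bp before to 100 bp after the 5′ end, gave 4 genes (3 elongation, 1 initiation), 1 of the added list, a median of -27.5 bp, and 12 genes with a summit in both replicates, against 22. Restricting each replicate to its top 1841 peaks gave 7 such genes. Summits in the window of no other gene gave 5 genes (1 elongation), and summits nearest to the gene's own 5′ end gave 8. With the outermost 5′ end of each gene alone, iff-1 dropped out, 8 genes (4 elongation) and 4 of the added list had a summit, and the median was -178 bp. Using the top 1841 peaks of a single replicate gave 8 to 9 genes, 4 to 5 elongation genes, 4 initiation genes and 4 of the added list in either replicate, and medians of -242 to -176 bp. The list of replicate 1 lost eef-1G and eif-3.G and gained eif-3.D. Only eef-2 and eif-2A had a summit under all 8 list and window settings. When summits in another gene's window were left out, eif-2A kept its summit and eef-2 did not. Why the median moved between replicates was not tested. No paired analysis was possible because the series has 1 group. Unknown depth limits every statement on genes without a summit, which may lie below what these libraries could detect.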
